A study of Mus musculus with 27 samples.

Results

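The ADAMTS proteases (a disintegrin and metalloproteinase with thrombospondin motifs) were followed here as 10 genes, taken by symbol from the 53379 genes of the count table: Adamts1, Adamts2, Adamts4, Adamts5, Adamts7, Adamts9, Adamts10, Adamts12, Adamts14 and Adamts15. The 9 other ADAMTS genes of the mouse were treated as context. ADAMTS proteins are secreted zinc proteases that work in the extracellular matrix. Some trim procollagens before fibrils form, some cut large proteoglycans such as versican, and others act on matrix glycoproteins or on the fibrillin scaffold. They are made as inactive precursors that proprotein convertases open, TIMP3 blocks several of them, and LRP1 takes some of them back into the cell.

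RNA was measured by bulk sequencing in hepatic stellate cells (HSCs), the vitamin A storing pericytes of the liver sinusoid, which turn into the main matrix-producing cells of the injured liver. All 27 libraries came from male Balb/c mice, and cells were sorted after liver perfusion by the ultraviolet fluorescence of their retinoids and not cultured. The injured mice received the hepatotoxin carbon tetrachloride (CCl4) in mineral oil into the peritoneum at 0.5 µL per g body weight. The acute groups, 10 to 12 weeks old, got 1 injection, with 3 libraries at 24 h and 4 each at 72 h and 7 d. The chronic groups, 8 to 10 weeks old at the start, were injected semi-weekly for 4 weeks and collected 24 h, 72 h or 14 d after the regimen (n = 4 each). The healthy mice, 10 to 12 weeks old (n = 4), were not injected, so CCl4, oil and the injection itself cannot be told apart, and the same 4 healthy libraries served in every comparison with healthy. Age and repeated injury cannot be told apart between the chronic groups and the acute or healthy groups.

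The libraries held 6310000 to 13100000 counts. In 8 of them (chronic 24 h replicates 1 and 2, chronic 72 h replicates 1 and 2, and the 4 chronic 14 d libraries) the total was at most 7580000, and in the other 19 it was at least 10800000. All 12 HSC markers had counts in every library, with a summed level of 26900 to 46800 CPM (counts scaled to the size of the library) in healthy cells. The sum was 20300 to 33200 CPM at acute 24 h, 15600 to 19600 CPM at acute 72 h and 18300 to 21300 CPM at acute 7 d. In the chronic groups it was 15000 to 17900 CPM at 24 h, 21500 to 24100 CPM at 72 h and 23000 to 30400 CPM at 14 d. Of these markers Dcn alone was at 17600 CPM in healthy cells and 8390 CPM at chronic 24 h. The 10 macrophage markers summed to 154 to 645 CPM in healthy cells, 151 to 216 CPM at acute 24 h, 302 to 587 CPM at acute 72 h, 4070 to 10700 CPM at acute 7 d, 527 to 3640 CPM at chronic 24 h, 1020 to 2810 CPM at chronic 72 h and 786 to 2060 CPM at chronic 14 d. The 6 cholangiocyte markers summed to 56.1 to 103 CPM in healthy cells, 87.4 to 104 CPM at acute 24 h, 131 to 183 CPM at acute 72 h, 758 to 4800 CPM at acute 7 d, 559 to 1300 CPM at chronic 24 h, 254 to 842 CPM at chronic 72 h and 206 to 368 CPM at chronic 14 d. The sum was mostly Spp1 at acute 7 d (2880 ± 1730 CPM), and of 5 cholangiocyte markers tested 1 was called higher at acute 7 d and 2 in each chronic group. The 10 hepatocyte markers summed to 575 to 4080 CPM in healthy cells and 113 to 296 CPM at acute 24 h, where 9 were called lower, and to 574 to 8120 CPM over the other groups. The part of these cells in the changes described here was not tested. Healthy replicate 4 had the lowest level of its group for 7 of the 10 genes, and chronic 72 h replicate 4 likewise for 7.

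All 10 genes passed the filter on low counts; the lowest count was 18 (Adamts7) and the highest 22360 (Adamts1). A gene was called when the adjusted p of edgeR's quasi-likelihood test, corrected over all 18758 genes tested, was under 0.05 and the fold change was over 2. Against healthy, 8 of the 10 genes were called in at least 1 injury group, as were 38.8% of all genes tested. Adamts15 was called higher in 6 of the 6 injury groups, Adamts7 and Adamts12 in 5 each, Adamts4 in 3 and Adamts2 in 1, while Adamts1, Adamts5 and Adamts10 were called lower in 1 group each. Adamts9 and Adamts14 were not called in any of these 6 comparisons.

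At acute 24 h, 3 genes were called higher and 1 lower, where 9.41% of all genes tested were called higher and 12.5% lower. At acute 72 h, 4 were called higher (8.23% of all genes higher, 4.33% lower), and at acute 7 d also 4 (9.23% higher, 5.64% lower). At chronic 24 h, 4 were called higher and 1 lower, against 11.2% and 8.11% of all genes. At chronic 72 h, 3 were called higher and 1 lower, against 7.88% and 4.2%. At chronic 14 d, 2 were called higher, against 4.55% of all genes higher and 1.17% lower. No gene was called lower at acute 72 h, acute 7 d or chronic 14 d by edgeR or by DESeq2; at an unadjusted p under 0.05 in edgeR the lower genes numbered 0, 3 and 2. The median log2 fold change over the 10 genes was 0.26, 0.81 and 0.41 in the acute groups in order of time and 0.59, 0.88 and -0.16 in the chronic groups.

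**Figure D1:**
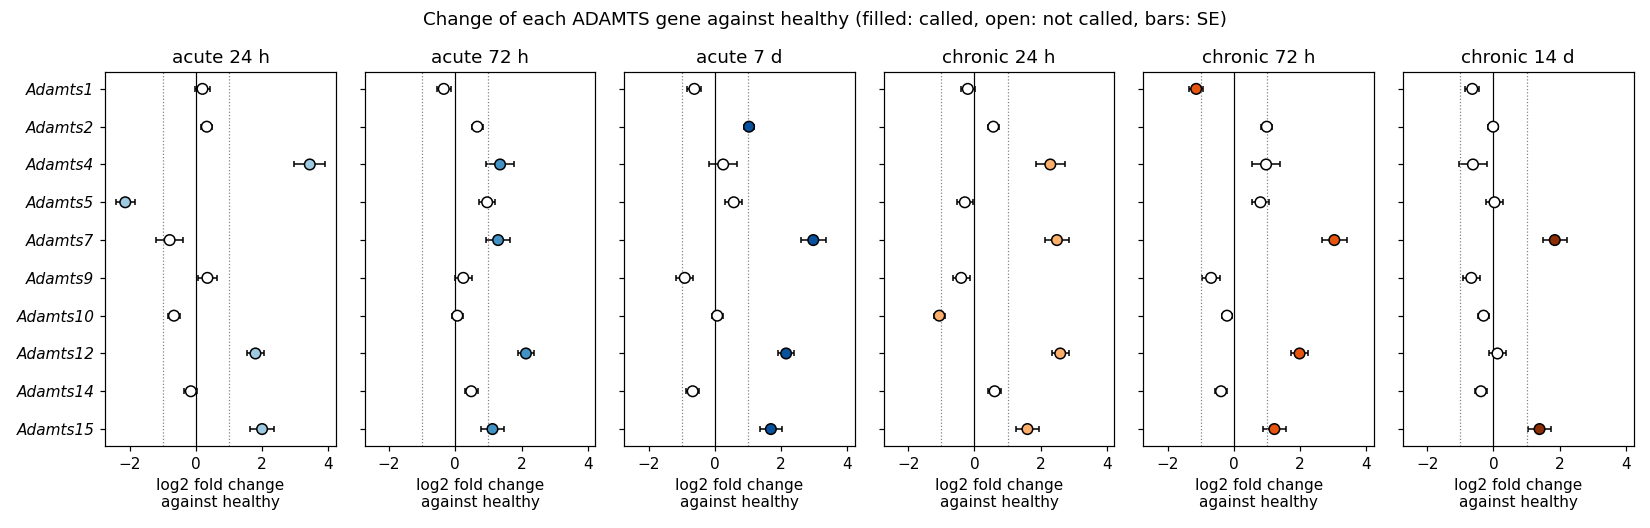
Log2 fold change against healthy (x axis) of each of the 10 genes (y axis) in the 6 injury groups, with the standard error of the fit as bars and dotted lines at a 2-fold change. Filled points were called and open points were not; Adamts7, Adamts12 and Adamts15 lay to the right in most panels, and Adamts4 (up) and Adamts5 (down) moved apart at acute 24 h.

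To compare levels between genes, CPM was divided by the merged exon length of each gene. In healthy HSCs Adamts1 had the highest level per length, with 266 ± 40.8 CPM per kb (SD, n = 4), and made up 66.6% ± 4.98 of the sum of the 10 genes. Adamts2 followed with 11.0% ± 1.49 and Adamts10 with 7.91% ± 0.916. Adamts7 had the lowest share, 0.175% ± 0.107. The order of the major genes changed with injury. At acute 24 h Adamts4 made up 33.4% ± 4.69 of the sum (n = 3), up from 4.68% ± 2.51 in healthy cells, and Adamts1 48.1% ± 5.6. At chronic 72 h Adamts1 was down to 35.9% ± 3.59 and Adamts2 made up 26.0% ± 1.0. At chronic 14 d the shares of Adamts1 (57.9% ± 4.26) and Adamts4 (4.24% ± 0.788) had moved back towards those in healthy cells.

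**Figure D2:**
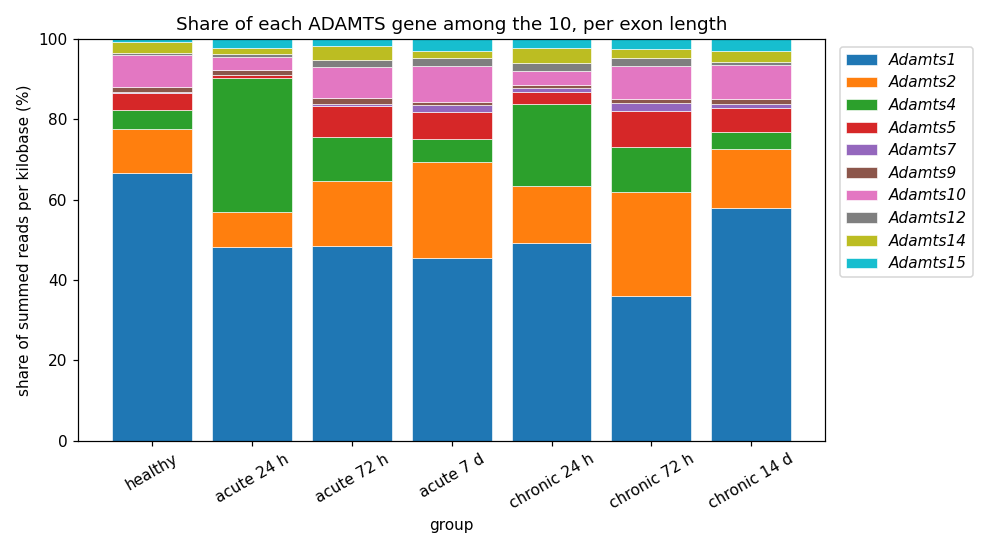
Mean share (y axis, percent) of each gene in the summed reads per kilobase of exon of the 10 ADAMTS genes, by group (x axis). Adamts1 was the largest part in each group, Adamts4 widened to 33.4% at acute 24 h, and Adamts2 to 26.0% at chronic 72 h.

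Among the proteases that cut versican and related proteoglycans, Adamts4 rose most. Adamts4 (ENSMUSG00000006403, GRCm38 chr1:171250421-171260637, plus strand) encodes aggrecanase-1. Its level in the healthy libraries was 112, 160, 61.3 and 34.5 CPM. At acute 24 h it was 959, 984 and 1040 CPM, and at chronic 24 h 370, 522, 479 and 422 CPM. Every library of both 24 h groups lay above every healthy library, and the 2 groups did not overlap each other. The log2 fold change against healthy was 3.44 (SE 0.47, adjusted p = 6.38e-06) at acute 24 h and 2.29 (SE 0.43, adjusted p = 0.000291) at chronic 24 h. Later the gene came down. The acute 72 h libraries held 477, 223, 116 and 121 CPM and overlapped the healthy ones; the fitted difference of 1.35 (SE 0.42, adjusted p = 0.0236) rested on replicate 1, without which it was 0.74 (adjusted p = 0.175). The call was also lost without healthy replicate 3 (1.20, adjusted p = 0.0775) or 4 (1.08, adjusted p = 0.0651) with only the groups compared in the fit (1.35, adjusted p = 0.148), and with libraries of 1 depth class (1.35, adjusted p = 0.0674). At acute 7 d the level was 67.6, 59.1, 168 and 142 CPM, at chronic 72 h 192, 169, 216 and 145 CPM, and at chronic 14 d 71.4, 58, 62.7 and 46.9 CPM, and none of these groups was called against healthy.

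The summed level of 5 smooth muscle markers was also higher in the 24 h groups in which Adamts4 was called, at 576 to 663 CPM in healthy cells, 1910 to 2170 CPM at acute 24 h and 738 to 3560 CPM at chronic 24 h. At acute 72 h, where Adamts4 was called too, the sum ran from 567 to 1620 CPM and overlapped the healthy range. At acute 24 h 1 of the 5 was called higher and most of the sum was Tagln (139 ± 47.4 CPM in healthy cells and 1690 ± 246 CPM at acute 24 h), while at chronic 24 h 4 of the 5 were called higher. None of the 5 was at 0 across any of these groups. In bulk RNA, smooth muscle cells that express these markers and HSCs that express them cannot be told apart. The part of smooth muscle cells in the result was not tested.

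Adamts5 (ENSMUSG00000022894, chr16:85856173-85901828, minus strand), which encodes aggrecanase-2, went the other way at acute 24 h. The healthy libraries held 173, 239, 215 and 106 CPM, and the acute 24 h libraries 61.3, 35 and 29.4 CPM, with no overlap. The log2 fold change was -2.13 (SE 0.29, adjusted p = 6.47e-06). At acute 72 h the gene stood at 327, 251, 425 and 422 CPM, above each healthy library, that is by 0.96 on the log2 scale (SE 0.25, adjusted p = 0.0082), under the 2-fold limit. At acute 7 d it was at 232, 285, 284 and 291 CPM, at chronic 72 h at 319, 286, 316 and 353 CPM and at chronic 14 d at 225, 221, 166 and 134 CPM. In the chronic 24 h libraries, with 195, 160, 142 and 102 CPM, the level overlapped healthy (log2 fold change -0.29, SE 0.25, adjusted p = 0.401).

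The RNA balance of the genes of these aggrecanases therefore differed widely between groups. Per length, the ratio of Adamts4 to Adamts5 ran from 0.64 to 1.5 over the healthy libraries, from 35.1 to 79.7 at acute 24 h and from 4.26 to 9.31 at chronic 24 h. In the other groups it lay between 0.465 (acute 7 d) and 3.27 (acute 72 h). The ratio was higher in each 24 h library than in any library of the other 5 groups. In bulk RNA, fewer cells that express a gene and less RNA of it per cell cannot be told apart.

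**Figure D3:**
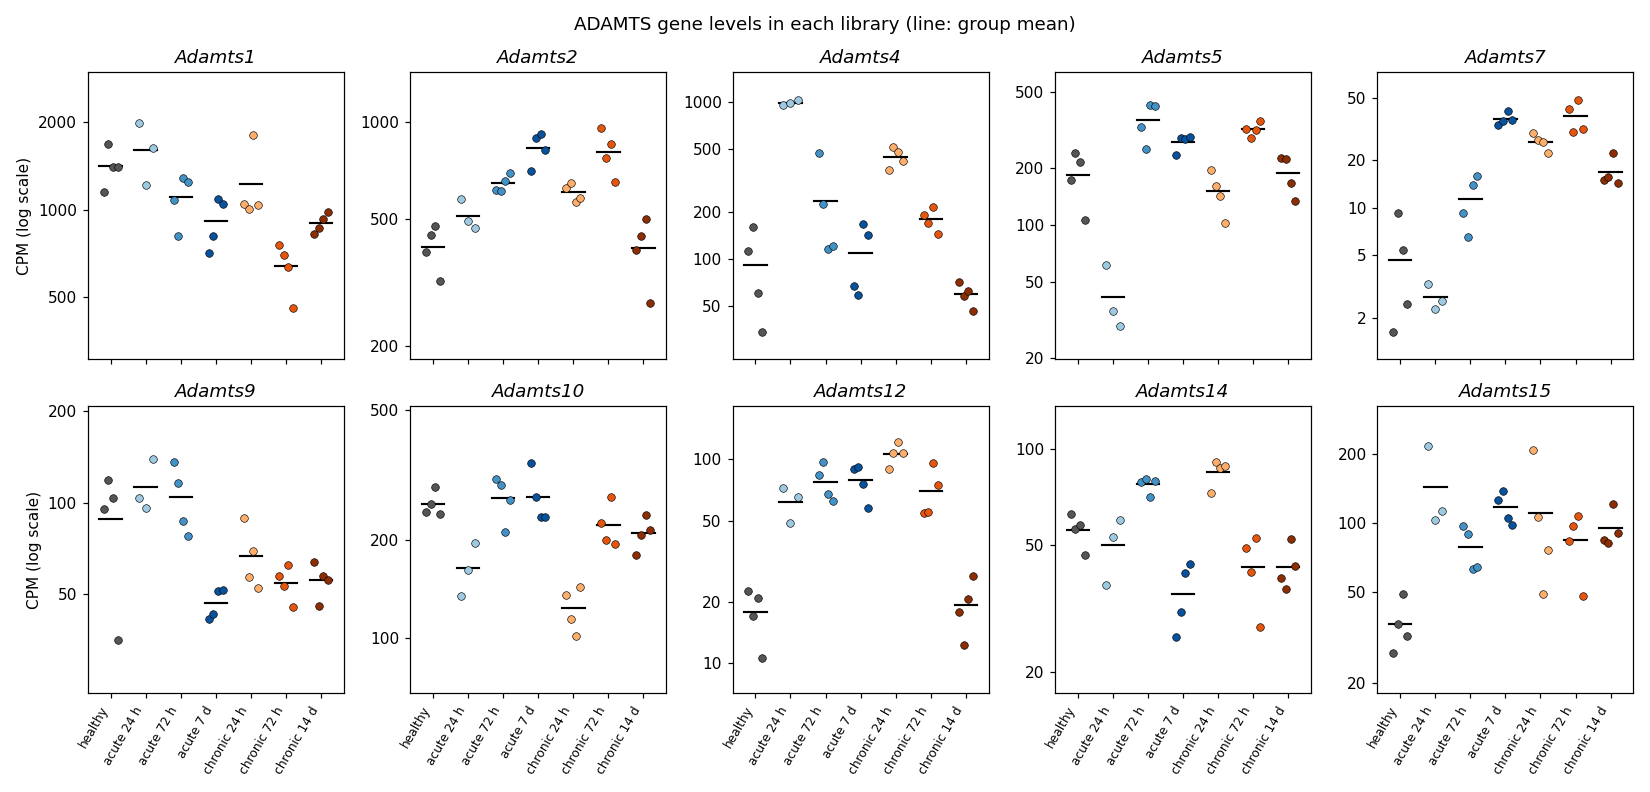
Level of each of the 10 genes (y axis, CPM on a log scale) in each of the 27 libraries (points) by group (x axis), with the group mean as a line; each panel has its own scale. Adamts4 peaked at 24 h after CCl4, Adamts5 had its lowest levels at acute 24 h, and Adamts12 was near the healthy level at chronic 14 d.

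Adamts1 (ENSMUSG00000022893, chr16:85793827-85803113, minus strand), a protease of versican and aggrecan that is also known to restrain new vessel growth, was the most abundant member. Its 250 bases before the RefSeq start (GRCm38.p6, chr16:85803114-85803363, minus strand) are shown because this is the highest expressed gene of the family here and its window holds a TATA box. Capitals mark a TATA box (TATAAA) and the GC box (GGGCGG), searched on both strands; the matches do not overlap.
Adamts1: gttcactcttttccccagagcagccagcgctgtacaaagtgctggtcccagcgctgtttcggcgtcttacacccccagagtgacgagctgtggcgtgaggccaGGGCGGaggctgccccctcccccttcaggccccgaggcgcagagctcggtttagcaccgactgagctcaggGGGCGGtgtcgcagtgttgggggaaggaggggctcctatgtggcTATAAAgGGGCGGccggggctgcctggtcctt
A TATA box was found in 12.4% and a GC box in 32.7% of 32851 mouse promoter windows of this length. RefSeq windows were at hand for 5 of the 10 genes (Adamts1, Adamts2, Adamts9, Adamts12 and Adamts14).

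Adamts1 was at 1150, 1680, 1410 and 1410 CPM in healthy libraries and at 760, 698, 638 and 459 CPM at chronic 72 h. The groups did not overlap, and the log2 fold change was -1.14 (SE 0.21, adjusted p = 0.000488). Its level was 1990, 1220 and 1630 CPM at acute 24 h, 1080, 812, 1290 and 1250 CPM at acute 72 h and 709, 816, 1090 and 1050 CPM at acute 7 d. At chronic 24 h it was 1050, 1010, 1810 and 1040 CPM, with replicate 3 well above the rest, and at chronic 14 d 829, 863, 934 and 980 CPM. The acute 7 d libraries lay below the healthy ones by -0.62 on the log2 scale (SE 0.21, adjusted p = 0.0363), and the chronic 14 d libraries at -0.64 (SE 0.21, adjusted p = 0.0605), neither of them over 2-fold.

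Adamts9 (ENSMUSG00000030022, chr6:92772699-92943492, minus strand), another versican-cutting enzyme, was at 95.5, 119, 104 and 35.4 CPM in healthy libraries, of which replicate 4 was far below the rest. It was at 104, 95.9 and 139 CPM at acute 24 h, at 136, 116, 87.1 and 77.9 CPM at acute 72 h and at 41.6, 43.1, 51.4 and 51.7 CPM at acute 7 d. The chronic libraries held 89.5, 57, 69.3 and 52.3 CPM at 24 h, 57.6, 53.1, 62.6 and 45.4 CPM at 72 h and 63.9, 45.8, 57.5 and 55.8 CPM at 14 d. At 72 h the chronic libraries lay below the acute ones, by -0.93 on the log2 scale (SE 0.26, adjusted p = 0.017), under the 2-fold limit. The acute 7 d libraries lay below each acute 24 h library, at a log2 difference of -1.27 (SE 0.28, adjusted p = 0.000803). Against healthy the acute 7 d value was -0.91 (SE 0.26, adjusted p = 0.0122), and without healthy replicate 4 it passed the 2-fold limit (-1.18, adjusted p = 0.00016). Exons of Adamts9 overlap those of A730049H05Rik and Gm15737 on the opposite strand, whose mean levels did not exceed 3.52 CPM in any group. The 10 sinusoidal endothelial markers, the list of another cell type in which Adamts1 and Adamts9 are known, summed to 198 to 595 CPM in healthy cells, 204 to 255 CPM at acute 24 h, 268 to 781 CPM at acute 7 d and 236 to 345 CPM at chronic 72 h, with no marker at 0 across a group; their part was not tested.

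Adamts15 (ENSMUSG00000033453, chr9:30899155-30922452, minus strand), also a versican and aggrecan protease, was the gene called in all 6 injury groups. Healthy libraries held 27, 36.1, 48.7 and 32.1 CPM. The acute libraries held 215, 103 and 112 CPM at 24 h, 96.6, 89.4, 62.5 and 64 CPM at 72 h and 126, 138, 105 and 97.2 CPM at 7 d, each above the highest healthy library. Log2 fold changes were 2.0 (SE 0.36, adjusted p = 0.000153), 1.12 (SE 0.34, adjusted p = 0.0189) and 1.69 (SE 0.34, adjusted p = 0.00084). The chronic libraries held 208, 106, 48.8 and 76.2 CPM at 24 h, 83.3, 96.3, 107 and 48.1 CPM at 72 h and 83.9, 81.8, 121 and 90.4 CPM at 14 d. Of these, replicate 4 at 72 h fell within the healthy range. The chronic values were 1.60 (SE 0.34, adjusted p = 0.000869), 1.22 (SE 0.34, adjusted p = 0.0123) and 1.39 (SE 0.34, adjusted p = 0.0108).

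The acute 72 h call of Adamts15 was lost without healthy replicate 1 (adjusted p = 0.0584) or acute 72 h replicate 1 (adjusted p = 0.05), at a log2 fold change of 1.00 in each. Each chronic call was lost under 1 of the fits that took account of sequencing depth. The chronic 24 h value was 0.81 (adjusted p = 0.0962) with libraries of the higher depth class alone and 1.10 (adjusted p = 0.0183) with the depth class as a term. The chronic 72 h value was 1.14 (adjusted p = 0.0338) with libraries of the higher depth class alone and 0.86 (adjusted p = 0.0667) with the depth class as a term. The chronic 14 d value was 0.62 (adjusted p = 0.437) with the depth class as a term, and that group held no library of the higher depth class. Chronic 24 h replicates 1 and 2, the lower-depth pair with the higher Adamts15, also had the higher macrophage marker sums, 2540 and 3640 CPM against 527 and 1140 CPM in replicates 3 and 4. Within the pair, replicate 1 had the higher Adamts15 and replicate 2 the higher macrophage sum. Hepatocyte marker sums were higher in the pair too (2530 and 1730 against 574 and 893 CPM), as were HSC, endothelial, mesothelial and neutrophil sums. Smooth muscle sums were lower (738 and 1850 against 2220 and 3560 CPM), as were T and NK cell sums. The part of these cells was not tested.

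The procollagen N-propeptidases Adamts2 and Adamts14 cut the amino-terminal propeptide from fibrillar procollagens. Adamts2 (ENSMUSG00000036545, chr11:50602084-50807573, plus strand) was at 394, 443, 475 and 318 CPM in healthy libraries and at 707, 891, 918 and 820 CPM at acute 7 d. The groups did not overlap, and the log2 fold change was 1.03 (SE 0.16, adjusted p = 7.04e-05), just past the 2-fold limit, which it missed without healthy replicate 4 (0.93), acute 7 d replicate 2 (1.00 after rounding) or acute 7 d replicate 3 (0.98). At chronic 72 h the libraries held 960, 774, 857 and 649 CPM, and the difference of 0.99 on the log2 scale (SE 0.16, adjusted p = 0.000137) was just under the limit. At acute 72 h (615, 610, 658 and 696 CPM) and chronic 24 h (624, 648, 565 and 581 CPM) the libraries also lay above the healthy ones, by 0.66 (adjusted p = 0.00482) and 0.57 (adjusted p = 0.00982). At chronic 14 d, with 400, 442, 500 and 272 CPM, the log2 fold change was -0.01 (SE 0.16, adjusted p = 0.975).

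Adamts14 (ENSMUSG00000059901, chr10:61197112-61273438, minus strand) had a different profile. It was at 62.6, 56, 57.7 and 46.4 CPM in healthy libraries, at 73, 91, 87 and 88.2 CPM at chronic 24 h and at 25.6, 30.7, 40.7 and 43.5 CPM at acute 7 d. The chronic 24 h libraries lay above and the acute 7 d libraries below the healthy ones, by 0.61 (SE 0.19, adjusted p = 0.0169) and -0.67 (SE 0.19, adjusted p = 0.0128), neither over 2-fold. Per length, Adamts2 exceeded Adamts14 by 3.5 to 4.58 times in healthy libraries, by 3.61 to 4.76 times at chronic 24 h, by 9.07 to 13.1 times at chronic 72 h and by 10.5 to 16.2 times at acute 7 d.

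Adamts7 and Adamts12 encode a related pair of long proteases that cut cartilage oligomeric matrix protein. Adamts7 (ENSMUSG00000032363, chr9:90163069-90208071, plus strand) had the lowest level per length in healthy cells, with 1.63, 9.26, 5.39 and 2.43 CPM. It was at 3.29, 2.26 and 2.55 CPM at acute 24 h, at 9.3, 6.49, 14 and 15.8 CPM at acute 72 h and at 33.5, 35.7, 41.3 and 35.9 CPM at acute 7 d. After a single injection the gene thus overlapped healthy at 24 h and 72 h and lay above it at 7 d, with log2 fold changes of -0.79 (SE 0.40, adjusted p = 0.137), 1.29 (SE 0.35, adjusted p = 0.0105) and 2.97 (SE 0.37, adjusted p = 3.95e-06). The chronic libraries were at 30, 27, 26 and 22.2 CPM at 24 h, 42.1, 30.1, 48.6 and 31.4 CPM at 72 h and 15, 15.7, 22.3 and 14.3 CPM at 14 d. All 12 chronic libraries lay above every healthy library, by 2.49 (SE 0.36, adjusted p = 1.27e-05), 3.03 (SE 0.37, adjusted p = 3.52e-06) and 1.85 (SE 0.36, adjusted p = 0.00188).

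With only the groups compared in the fit, the Adamts7 values at acute 72 h and chronic 14 d missed the threshold, at log2 fold changes of 1.28 (adjusted p = 0.135) and 1.92 (adjusted p = 0.0646). Adamts7 shares exon sequence with Tbc1d2b on the opposite strand, and because the sources used here do not say whether counting used strand, reads of the shared stretch cannot be told apart. Tbc1d2b was at 350 ± 42.1 CPM in healthy cells, 169 ± 42.6 CPM at acute 24 h, 238 ± 38.1 CPM at acute 72 h and 353 ± 46.1 CPM at acute 7 d. In the chronic groups it was at 337 ± 47.5 CPM at 24 h, 392 ± 150 CPM at 72 h and 406 ± 124 CPM at 14 d. The summed level of 7 mesothelial and portal fibroblast markers was also higher where Adamts7 was high, at 27.4 to 45.8 CPM in healthy cells, 26.2 to 59.3 CPM at acute 24 h, 87.8 to 138 CPM at acute 72 h, 147 to 166 CPM at acute 7 d, 123 to 247 CPM at chronic 24 h, 152 to 312 CPM at chronic 72 h and 115 to 170 CPM at chronic 14 d. Of the 7 markers 6 were tested, and 3 were called higher at acute 7 d, 3 at chronic 24 h, 4 at chronic 72 h and 3 at chronic 14 d. Of all genes tested 9.23%, 11.2%, 7.88% and 4.55% were called higher in these groups. Of these markers Msln was at 0 in each acute 24 h and acute 72 h library and at most 3.16 CPM elsewhere. Macrophage, cholangiocyte, B cell and neutrophil sums also lay above the healthy range at acute 7 d, chronic 72 h and chronic 14 d. At chronic 24 h the cholangiocyte and neutrophil sums did so too, while macrophage and B cell sums overlapped it. The part of any of these cells in the result was not tested.

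Adamts12 (ENSMUSG00000047497, chr15:11064790-11349231, plus strand) rose early and stayed up until chronic recovery. It was at 22.6, 16.9, 20.9 and 10.6 CPM in healthy libraries. The acute libraries held 72.1, 48.7 and 65.1 CPM at 24 h, 83.5, 96.6, 67.2 and 62.5 CPM at 72 h and 89.7, 91.6, 75.9 and 57.9 CPM at 7 d. The chronic libraries held 90.1, 108, 122 and 107 CPM at 24 h and 54.7, 55.1, 95.5 and 74.7 CPM at 72 h. Each of these lay above each healthy library. Log2 fold changes were 1.80 (SE 0.26, adjusted p = 1.35e-05), 2.13 (SE 0.25, adjusted p = 2.93e-06) and 2.15 (SE 0.25, adjusted p = 2.21e-06) in the acute groups, and 2.59 (SE 0.26, adjusted p = 7.99e-08) and 1.98 (SE 0.25, adjusted p = 6.05e-06) in the first 2 chronic groups. At chronic 14 d the libraries, at 17.8, 12.2, 20.6 and 26.6 CPM, overlapped the healthy ones (log2 fold change 0.12, SE 0.25, adjusted p = 0.828).

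Because Adamts12 rose in 5 of the 6 injury groups, its 250 bases before the RefSeq start (GRCm38.p6, chr15:11064523-11064772, plus strand, 63.2% G or C) are shown. The window was searched on both strands for an AP-1 site (TGANTCA), a TEAD site (GGAATG), the GC box and the TATA box, and no match was found, so it holds no capitals.
Adamts12: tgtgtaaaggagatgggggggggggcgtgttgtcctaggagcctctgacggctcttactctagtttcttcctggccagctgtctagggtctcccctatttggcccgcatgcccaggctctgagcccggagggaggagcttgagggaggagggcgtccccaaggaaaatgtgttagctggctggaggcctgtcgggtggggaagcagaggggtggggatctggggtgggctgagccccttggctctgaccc
An AP-1 site of these letters was found in 6.75% and a TEAD site in 12.6% of all windows of this length.

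Adamts10 (ENSMUSG00000024299, chr17:33524204-33553782, plus strand), which binds fibrillin and takes part in microfibril assembly, was lowest at 24 h after CCl4. Healthy libraries held 243, 258, 290 and 240 CPM, the acute 24 h libraries 134, 161 and 195 CPM, and the chronic 24 h libraries 135, 114, 101 and 143 CPM. Both 24 h groups lay below healthy without overlap. The log2 fold change was -0.66 (SE 0.18, adjusted p = 0.00539) at acute 24 h and -1.06 (SE 0.16, adjusted p = 2.37e-05) at chronic 24 h, where it was -0.98 without chronic 24 h replicate 3. In the other 4 injury groups the level ran from 179 to 343 CPM, and their log2 fold changes lay between -0.30 and 0.07; of these groups the chronic 14 d libraries, at 179, 207, 238 and 214 CPM, lay just below the healthy ones (adjusted p = 0.277).

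The acute and chronic groups were then compared at the same time after the last injection. At 24 h, 2 of the 10 genes were called higher after repeated than after single injury, against 10.9% of all genes higher and 3.05% lower. These were Adamts7, by 3.28 (SE 0.42, adjusted p = 7.27e-06), and Adamts5, by 1.84 (SE 0.29, adjusted p = 7.29e-05), on the log2 scale. No gene was called lower by edgeR, 3 were lower at an unadjusted p under 0.05, and DESeq2 called 1, Adamts4 (-1.15, adjusted p = 0.042), for which edgeR gave -1.15 (SE 0.44, adjusted p = 0.0667). At 72 h, 1 gene was called higher after repeated injury, against 5.11% of all genes higher and 4.01% lower: Adamts7, by 1.74 (SE 0.35, adjusted p = 0.00134). No gene was called lower at 72 h by edgeR or DESeq2, with 3 lower at an unadjusted p under 0.05 in edgeR.

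The change from 24 h to 72 h differed between the chronic and the acute series for 2 genes, Adamts5 and Adamts14, where 6.46% of all genes had a lower and 2.28% a higher change in the chronic series. Adamts5 rose by 3.09 on the log2 scale in the acute series and by 1.09 in the chronic series, a difference of -2.0 (SE 0.38, adjusted p = 0.00125). Adamts14 moved by 0.63 in the acute and by -1.0 in the chronic series, a difference of -1.62 (SE 0.28, adjusted p = 0.000557). Its acute libraries went from 37.5, 53 and 59.7 CPM to 79, 80.4, 70.9 and 79.4 CPM, and its chronic libraries from 73, 91, 87 and 88.2 CPM to 48.9, 41.1, 52.6 and 27.6 CPM. The 24 h and 72 h libraries did not overlap in either series, and the order was opposite. With libraries of the higher depth class alone, the Adamts5 difference was -1.55 (adjusted p = 0.0564). For Adamts7 the difference was -1.54 (SE 0.52, adjusted p = 0.0574), which DESeq2 called (-1.50, adjusted p = 0.0283).

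**Figure D4:**
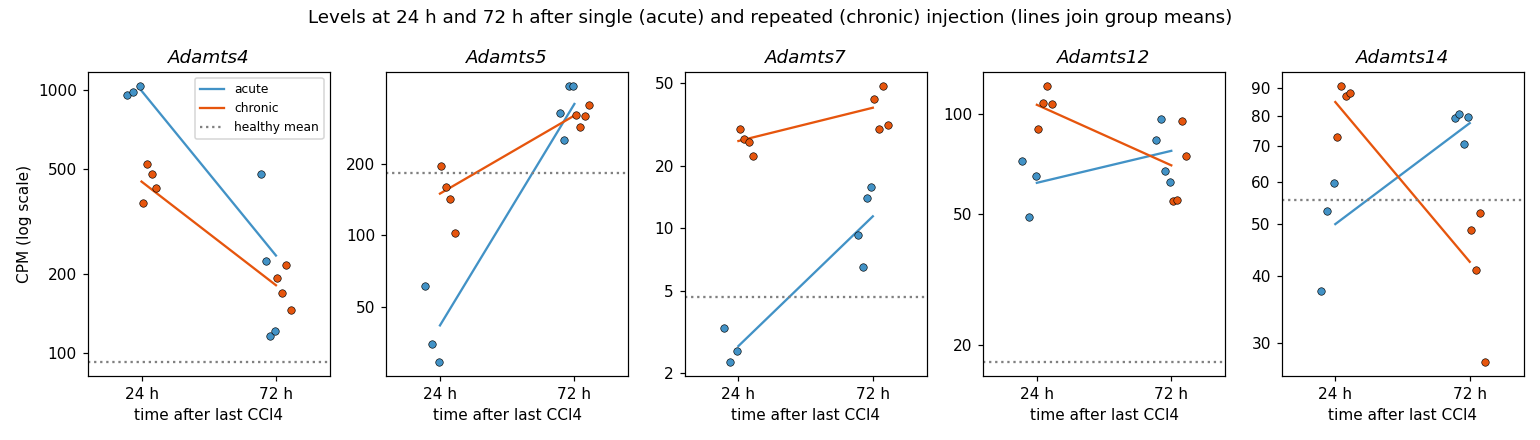
Levels (y axis, CPM on a log scale) of 5 genes at 24 h and 72 h after the last CCl4 (x axis) in the acute and chronic series, with 1 point per library, lines between group means and the healthy mean dotted. The lines for Adamts14 cross, from 50 to 77.4 CPM in the acute and from 84.8 to 42.6 CPM in the chronic series, and Adamts5 rose more steeply in the acute series.

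Within a series, early and late times were also compared. From 24 h to 7 d after a single injection, Adamts7 (3.76, SE 0.43, adjusted p = 6.14e-07) and Adamts5 (2.70, SE 0.30, adjusted p = 3.81e-07) rose and Adamts4 (-3.19, SE 0.46, adjusted p = 1.13e-05) and Adamts9 fell, that is 2 genes in each direction, against 17.8% of all genes higher and 9.24% lower. From chronic 24 h to 14 d of recovery, Adamts4 (-2.91, SE 0.45, adjusted p = 5.61e-05) and Adamts12 (-2.47, SE 0.26, adjusted p = 5.17e-07) were the 2 genes called lower, against 6.11% of all genes lower and 6.65% higher. Adamts14 was at -0.99 (SE 0.19, adjusted p = 0.000599), just within the 2-fold limit. No gene was called higher by edgeR or DESeq2, and at an unadjusted p under 0.05 in edgeR 1 was higher. Adamts7 and Adamts15, which were called higher than healthy at chronic 14 d, were at -0.64 (SE 0.34, adjusted p = 0.186) and -0.21 (SE 0.33, adjusted p = 0.703) against chronic 24 h. Their calls against healthy at chronic 14 d did not hold in every edgeR fit. With only the groups compared Adamts7 was at 1.92 (adjusted p = 0.0646). With the depth class as a term Adamts15 was at 0.62 (adjusted p = 0.437). Adamts4 and Adamts12 also belong to the list of fibrogenic genes that the study chose on these samples, so their fall in recovery is not independent of that choice.

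The rest of the family and its partners were read from lists of genes. Of the 9 other ADAMTS genes 4 had enough counts to be tested. Adamts13, the von Willebrand factor protease, for which HSCs are the known source, was at 223 ± 76.5 CPM in healthy cells and was called lower in 5 of the 6 injury groups, most at chronic 24 h with 23 ± 14.8 CPM (log2 fold change -3.29, SE 0.55, adjusted p = 7.4e-05). Adamts8 was called higher at acute 7 d and chronic 24 h, but its mean level did not exceed 5.17 CPM in any group. Among the 7 ADAMTS-like genes, which lack the protease domain, Adamtsl4 was called lower in 6 of the 6 injury groups, from 225 CPM in healthy cells to 22.9 CPM at chronic 24 h. Adamtsl1 was called lower at acute 24 h (-2.60, SE 0.47, adjusted p = 0.000156) and higher in the other 5 groups, by up to 2.51 at chronic 24 h.

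Of 7 genes for inhibitors and clearance 5 were tested. Timp3, the main ADAMTS inhibitor, was called higher at acute 72 h (1.80, SE 0.41, adjusted p = 0.00267), chronic 24 h (2.10, SE 0.42, adjusted p = 0.000447) and chronic 72 h (1.31, SE 0.41, adjusted p = 0.0244). Sdc4, the syndecan that binds ADAMTS4 and ADAMTS5 at the cell surface, was called higher at acute 24 h (3.22, SE 0.33, adjusted p = 2.04e-07), acute 72 h (1.68) and chronic 24 h (2.26), where Adamts4 was called higher too. Timp1 went from at most 1.27 CPM in healthy libraries to between 91 and 102 CPM at acute 24 h and between 128 and 172 CPM at chronic 24 h. Lrp1, the clearance receptor, was called lower at acute 7 d (-1.20, adjusted p = 0.015) and chronic 14 d (-1.11, adjusted p = 0.049), with libraries that overlapped the healthy ones. Of the 5 genes for maturation, Pcsk6, a convertase, was called lower in 6 of the 6 groups, from 213 CPM in healthy cells to 6.64 CPM at chronic 24 h.

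Among the substrates, 4 of 8 proteoglycan genes were tested, and Vcan was called higher in 6 of the 6 injury groups, from 2.2 CPM in healthy cells to 48.7 CPM at acute 24 h and 65.4 CPM at chronic 24 h. Of 14 procollagen and matrix substrates 12 were tested. At acute 24 h, 2 were called higher and 1 lower, where 9.41% of all genes tested were called higher and 12.5% lower. Called higher were 5 at acute 72 h (8.23% of all genes), 8 at acute 7 d (9.23%) and 9 at chronic 24 h (11.2%). At chronic 72 h 7 were called higher (7.88% of all genes) and at chronic 14 d 3 (4.55%). Col1a1 was called higher in each of the 6 groups, from 230 CPM in healthy cells to 9360 CPM at acute 7 d (log2 fold change 5.34, SE 0.41, adjusted p = 1.32e-08), where Adamts2 had its highest mean level. Bmp1, the C-propeptidase that trims the other end of procollagen, was called higher at acute 7 d (1.41, SE 0.15, adjusted p = 6.04e-07) and in no other injury group. Comp, the named substrate of Adamts7 and Adamts12, had no count in any library.

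Adamts4, Adamts7 and Adamts5 had the widest ranges of group means, 4.07, 3.71 and 3.12 on the log2 scale. Among 13941 genes whose mean log2 CPM reached 1, the profile over the 7 group means most like that of Adamts4 was that of Sphk1, with a root mean square difference of 0.38, followed by Bst2 (0.41) and Sdc4 (0.41). For Adamts7 these were Camk1g (0.20), Pdgfrl (0.23) and Scrn1 (0.28), and for Adamts5 Mest (0.11), Chst10 (0.18) and Zfp808 (0.29).

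When the 7 groups were ordered by the mean level of a gene, most neighbours in the order had libraries that overlapped. For Adamts2, Adamts9 and Adamts10 all neighbours overlapped. Neighbours stood apart for Adamts4 between acute 24 h and chronic 24 h, for Adamts5 between acute 7 d and chronic 14 d and between chronic 24 h and acute 24 h, and for Adamts7 between acute 7 d and chronic 24 h. They also stood apart for Adamts12 between acute 24 h and chronic 14 d, for Adamts14 and Adamts15 between acute 72 h and healthy, and for Adamts1 between chronic 14 d and chronic 72 h.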

How the data were processed

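Bulk RNA was sequenced in 27 HSC libraries, each the authors' own repeat. As the labels and the study's methods say, the authors trimmed single-end reads, mapped them to GRCm38 with STAR and made raw counts per gene with StringTie, whose versions and strand setting are not given in the sources used here. Without strand, reads of a gene and of one overlapping it on the other strand cannot be told apart, and 1 such overlap is not reported here. The deposited values are whole read counts, not normalized. The 10 genes and all lists were chosen with earlier results of these data known. All 10 are named with values, though not each of them for every group. Gene positions, merged exon lengths and symbols came from GENCODE M21 (53274 of 53379 IDs matched). Counts were filtered by expression (18758 genes kept), scaled by TMM and fitted in 1 model with 7 group means (edgeR 4.0.16, limma 3.58.1, R 4.3.3, robust quasi-likelihood test), for 10 comparisons and 1 interaction, with Benjamini-Hochberg adjustment over all genes kept. CPM used the scaled library sizes. The filter, scaling, DESeq2 1.42.0, the fold limit, the groups fitted, a replicate block, the depth class (below or above 9000000 counts) and single libraries were varied. Between replicates of a group the chi-square per gene was at least 15.5 times that of counting error, so none was counted as a duplicate; p-values measure the spread between these libraries. On simulated data the test recovered 69.5% of 200 genes changed 4-fold at acute 24 h (18264 genes) and 69% at chronic 24 h (18315 genes).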

Additional observations from a re-analysis of the deposited data

Results flagged for a closer look

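Over the 10 genes, 60 groups of 4 libraries were checked for a library far from the others, of which chance alone would pick about 1 in 20, and 3 were found. Adamts1 at chronic 24 h was far higher in replicate 3 (1810 CPM) than in the others. Adamts5 at acute 7 d was lower in replicate 1 (232 CPM), and Adamts14 at acute 72 h was lower in replicate 3 (70.9 CPM). The change from 24 h to 72 h differed between the chronic and acute series by the interaction test for Adamts5 (-2.0 on the log2 scale) and Adamts14 (-1.62).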

How the results depend on the processing

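Of the 34 called values of the 10 genes, 24 were called under every alternative and without any library in turn, and of 614 values under alternatives 597 kept their direction and call, 17 missed the threshold and 0 turned direction. Without the 2-fold limit the counts rose to 2 lower at acute 24 h, 6 higher at acute 72 h, 3 lower at acute 7 d, 6 higher at chronic 24 h, 5 higher at chronic 72 h, 1 higher and 4 lower at chronic 14 d against chronic 24 h, 4 higher and 4 lower at acute 7 d against acute 24 h, 4 higher at chronic against acute 24 h and 3 lower at chronic against acute 72 h. With only the groups compared in the fit, 2 were higher at acute 72 h, 1 higher at chronic 14 d and 1 (Adamts4) lower at chronic against acute 24 h, as with DESeq2 (1). In that fit Adamts2 was also called higher at chronic 72 h, and the 24 h to 72 h change of Adamts7 was called different. With the depth class as a term, 1 was higher at chronic 14 d and 1 (Adamts9) lower at chronic against acute 72 h. That fit also lost Adamts15 at chronic 72 h and added Adamts14 as lower at chronic 14 d against chronic 24 h (-1.01, adjusted p = 0.00249). With libraries of 1 depth class, 1 (Adamts15) was lower at chronic against acute 24 h and 1 gene (Adamts14) had a different 24 h to 72 h change. Adamts4 at acute 72 h and Adamts15 at chronic 24 h, both against healthy, were then not called. Without single libraries the counts ran from 1 to 2 lower at acute 24 h (2 without healthy replicate 1), 2 to 5 higher at acute 72 h (2 without acute 72 h replicate 1), 0 to 1 lower at acute 7 d (1 without healthy replicate 4), 0 to 1 lower at chronic 24 h (0 without chronic 24 h replicate 3), 3 to 5 higher at chronic 72 h (5 without healthy replicate 2) and 0 to 1 lower at chronic against acute 72 h (1 without acute 72 h replicate 4). They also ran from 3 to 4 higher at acute 7 d and from 2 to 3 lower at chronic 14 d against chronic 24 h. For a different 24 h to 72 h change they ran from 2 to 3. The cause of these changes was not tested. Library size alone moved the median of all genes by 0.102 to 0.121 at acute 72 h, acute 7 d and chronic 72 h and by 0.176 at chronic 14 d, all against healthy. With that scaling Adamts5 at acute 72 h and Adamts2 at chronic 72 h were also called higher, the latter without the filter too. Between same-numbered replicates of different groups, deviations had r from -0.17 to 0.19 (78 pairs, median 0.01). Of these pairs 15 had r over 0.1, against 16 of 234 pairs with different numbers (r from -0.33 to 0.32, median 0). The fit with a replicate block gave the same counts, such as 3 higher at acute 24 h and 4 at chronic 24 h. Chronic 14 d held only libraries of lower depth, so there depth and group cannot be told apart by leaving libraries out.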
